A study of Caenorhabditis elegans with 2 samples.

Results

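The genes described here are the 156 nuclear protein-coding genes of Caenorhabditis elegans whose name is col- followed by a digit, out of 19973 nuclear protein-coding genes in the WBcel235 annotation of Ensembl release 115. They were chosen by name alone. On the chromosomes, 27 of them lie on X and 129 on the autosomes, with 21 on I, 24 on II, 12 on III, 41 on IV and 31 on V. The study mapped the chromatin sites of MES-4 by chromatin immunoprecipitation and sequencing. It holds 1 group of 2 biological replicates of strain RW10325, a line carrying a stable transgene for MES-4 fused at its C terminus to GFP and FLAG, labelled as an insertion targeting mes-4. The fusion protein was immunoprecipitated with an antibody to GFP. Both replicates were whole young adult hermaphrodites, collected 63 h after synchronization of bleached worms as starved first-stage larvae, and their chromatin was sheared by sonication. All cells of the animal were pooled, so a peak cannot be assigned to the germ line or to the hypodermis, and peak lists hold no expression values with which the stage could be checked.

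Cuticle collagens are secreted by the hypodermis and cross-linked into the exoskeleton, which the worm remakes at each molt. Their central domain repeats glycine in the Gly-X-Y pattern, which lets the chains of a collagen wind around each other. MES-4 methylates lysine 36 of histone H3 and is best known in the germ line and early embryo, where it concentrates on autosomes and is largely missing from the X. Collagen genes of the cuticle are known as genes of the soma, so their chromosome and their place among the MES-4-GFP peaks are given below.

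A gene was called marked when the summit of a peak, the position of its highest signal, lay in the gene body or up to 500 bp upstream. The peak lists on the ce11 build held 12008 nuclear peaks for the pooled replicates, 15372 for replicate 1 and 14947 for replicate 2. These 3 lists are relaxed, made to include background, and the remaining list held the 440 nuclear peaks that the authors kept as reproducible. Ranks follow the peaks' signal value within a list, with rank 1 the highest.

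The sequence under the highest ranked summits is shown first, because most marked collagen genes had a glycine repeat at their best summit. Nearly all collagen genes, marked or not, code for this repeat. Each line gives 151 bases centred on the best pooled summit, in ce11 and on the coding strand, and the capitals mark glycine codons that follow each other at steps of 9 bases, as in a Gly-X-Y repeat.
col-19, chrX:422313-422463 (+): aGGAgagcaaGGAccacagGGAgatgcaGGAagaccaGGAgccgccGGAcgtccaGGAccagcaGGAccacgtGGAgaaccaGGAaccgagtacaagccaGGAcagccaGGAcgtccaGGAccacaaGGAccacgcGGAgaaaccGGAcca
col-176, chrX:10078125-10078275 (+): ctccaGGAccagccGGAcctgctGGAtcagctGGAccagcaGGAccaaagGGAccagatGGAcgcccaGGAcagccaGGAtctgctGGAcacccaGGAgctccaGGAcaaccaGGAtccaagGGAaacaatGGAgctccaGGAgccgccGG
col-91, chrIII:8262744-8262894 (-): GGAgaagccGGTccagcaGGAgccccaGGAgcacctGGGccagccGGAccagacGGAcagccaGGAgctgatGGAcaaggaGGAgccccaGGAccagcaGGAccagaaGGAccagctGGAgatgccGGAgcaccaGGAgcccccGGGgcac
col-39, chrII:10705459-10705609 (+): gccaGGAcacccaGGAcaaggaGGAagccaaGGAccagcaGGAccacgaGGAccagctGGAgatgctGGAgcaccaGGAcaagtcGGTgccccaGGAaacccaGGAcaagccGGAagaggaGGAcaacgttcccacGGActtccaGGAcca
col-156, chrV:11449566-11449716 (-): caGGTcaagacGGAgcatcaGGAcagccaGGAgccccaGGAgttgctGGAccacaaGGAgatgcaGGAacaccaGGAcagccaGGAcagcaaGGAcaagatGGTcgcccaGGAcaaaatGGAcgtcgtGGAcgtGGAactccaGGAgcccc
These 5 windows each hold 16 or 17 complete glycine codons of such runs, and most of the codons are GGA.

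The best summits of col-85 and col-99 lay instead at tRNA genes nested in their introns. In the next 151-base windows, on the strand of the tRNA, the capitals mark the tRNA gene itself.
col-85, chrII:12494707-12494857 (+): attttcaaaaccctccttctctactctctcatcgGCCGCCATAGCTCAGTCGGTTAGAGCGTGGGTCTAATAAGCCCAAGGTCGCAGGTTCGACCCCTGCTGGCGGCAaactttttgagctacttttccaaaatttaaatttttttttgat
col-99, chrIV:143889-144039 (+): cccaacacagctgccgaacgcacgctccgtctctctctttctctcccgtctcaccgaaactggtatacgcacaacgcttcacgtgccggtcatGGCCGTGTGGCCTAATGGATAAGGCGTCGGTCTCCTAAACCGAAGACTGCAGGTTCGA
The tRNA-Ile gene T21B4.t1 lies whole in the col-85 window, and the col-99 window ends within the tRNA-Arg gene F29C4.t1. Neither window shows the glycine repeat.

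In the pooled relaxed list 98 of the 156 collagen genes were marked, 62.8% (95% Clopper-Pearson interval 54.7 to 70.4%), against 34.3% of all protein-coding genes. Replicate 1 marked 94 collagen genes (60.3%), against 40.6% of all protein-coding genes. Replicate 2 marked 96 (61.5%), against 39.5%. Both replicates marked 73 of them (46.8%, interval 38.8 to 54.9%), against 26.1% of all protein-coding genes. Such intervals cover counting error only, and neighbouring genes with similar sequence are not independent.

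Collagen genes are short and rich in G and C. Among all genes, those of similar length were marked less often, and those that also had a similar GC content more often. Their median length was 1220 bp, against 2027 bp for all protein-coding genes, and their median coding GC content was 55.1%, against 42.5%. Of the 7183 protein-coding genes between 981.5 and 2186 bp, the range from the 10th to the 90th percentile of the collagen genes, 25.8% were marked in the pooled list, 31.7% in replicate 1, 30.8% in replicate 2 and 17.8% in both replicates. Of the 849 genes that also had a coding GC content between 48.5 and 60.0%, 49.7% were marked in the pooled list. Both sets include the collagen genes within these limits. Without collagen genes, 1775 of 7059 genes of similar length were marked in the pooled list. The share without them was not computed for length and GC content together. The share of collagen genes was above each of these, and the parts of length and base composition in it were not tested.

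The reproducible list held 4 collagen genes, 2.56% (0.703 to 6.44%), against 1.45% of all protein-coding genes. They were col-85 (WBGene00000660), col-99 (WBGene00000674), col-19 (WBGene00000608) and col-176 (WBGene00000749). Without replicate 1, the highest peaks of replicate 2 in the same number held 1 collagen gene, and without replicate 2 those of replicate 1 held 5. A count this small is near its background.

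**Figure D1:**
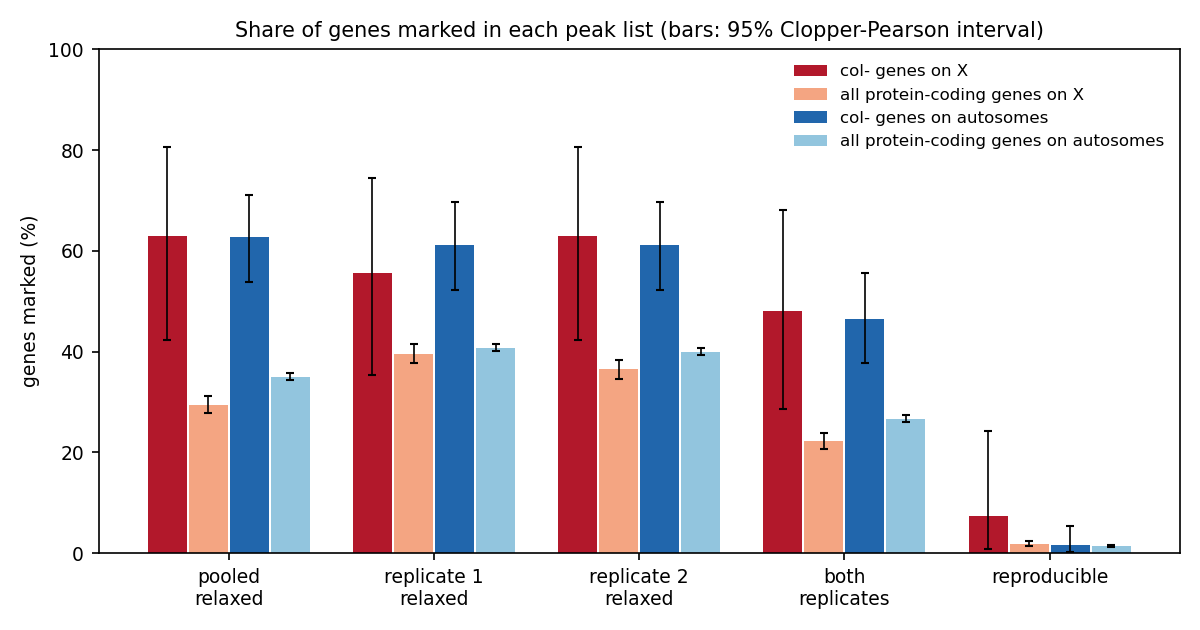
Percent of genes marked (vertical axis) in the pooled, replicate 1 and replicate 2 relaxed lists, in both replicate lists, and in the reproducible list, for collagen genes and all protein-coding genes on X (red) and on the autosomes (blue); bars carry 95% Clopper-Pearson intervals. In the pooled list collagen genes reach 63.0% on X and 62.8% on autosomes, against 29.4% and 35.0% of all protein-coding genes there.

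Collagen genes on X and on the autosomes were marked in nearly equal shares in the pooled list. There 17 of the 27 X genes were marked, 63.0% (42.4 to 80.6%), and 81 of the 129 autosomal genes, 62.8% (53.8 to 71.1%). The difference, X minus autosomes, was 0.172 percentage points with a Newcombe interval from -20.1 to 17.9. Among all protein-coding genes 29.4% were marked on X and 35.0% on the autosomes.

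In replicate 1, 15 X genes (55.6%) and 79 autosomal ones (61.2%) were marked, against 39.5% of all protein-coding genes on X and 40.8% of those on autosomes. Replicate 2 marked 17 X genes (63.0%) and again 79 autosomal ones, against 36.5% on X and 40.0% on autosomes. Both replicates marked 13 X genes (48.1%) and 60 autosomal ones (46.5%), against 22.3% on X and 26.7% on autosomes. The reproducible list had 2 on each side, with backgrounds of 1.90% on X and 1.37% on the autosomes. Which side was higher changed between the replicates, and by less than the width of the intervals. By autosome, the pooled shares ran from 58.1% on V and 61.0% on IV to 66.7% on each of I, II and III.

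In the 3 relaxed lists the marked collagen genes had lower rank numbers, that is higher signal, than marked genes at large. Their best pooled peak had a median rank of 2996, against 4780 over all marked protein-coding genes. In replicate 1 the medians were 2912 for collagen genes and 5958 for all marked genes, and in replicate 2 they were 3884 and 5751. The order was the other way in the reproducible list, with medians of 300 for its 4 collagen genes and 231 for all its marked protein-coding genes. Of the collagen genes, 14 were marked by the 1000 highest pooled peaks (8.97%), against 3.59% of all protein-coding genes, and 69 by the 5000 highest (44.2%), against 17.8%. With the 886 pooled peaks whose deposited q-value was at most 0.05, 13 collagen genes were marked (8.33%), against 3.14% of all protein-coding genes. This last limit was chosen after the data were seen, and most of the 98 genes were marked by weaker peaks.

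The highest ranked collagen gene was col-85 on chromosome II (12493703 to 12495095, minus strand). Its best peak had a signal of 58.98 in replicate 1 and 39.14 in replicate 2, where it ranked 152 and 479, and a signal of 98.80 at pooled rank 231. Both replicates placed it among their 500 highest peaks. The signal scale differs between lists, so only the ranks can be set beside each other. That summit lay in an intron, inside tRNA-Ile gene T21B4.t1 (12494741 to 12494814). A second pooled summit, at rank 1397, lay in the coding exon within the glycine repeat, 372 bp before the 3′ end.

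The gene col-99, which codes for a transmembrane collagen and is by far the longest of the group at 9946 bp, lies on chromosome IV (137974 to 147919, minus strand). Its best peak ranked 449 in replicate 1, with a signal of 42.03, and 264 in replicate 2, with a signal of 48.88, and had pooled rank 277. It lay in an intron 18 bp from tRNA-Arg gene F29C4.t1 (143982 to 144054). Another pooled summit of col-99, in a coding exon of its glycine repeat and away from the tRNA, ranked only 5520.

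The adult-stage collagen col-19, a gene switched on at the last molt, lies on X (421707 to 422691, plus strand). It ranked 305 in replicate 1, with a signal of 47.90, 497 in replicate 2, with a signal of 38.76, and 323 in the pooled list. The nearest tRNA or snoRNA gene lay 11926 bp from the summit, which fell in the coding exon 303 bp before the 3′ end. The same position also lies in ZK1193.2, and since peaks carry no strand the signal of overlapping genes cannot be told apart. The other adult collagens listed, col-7 and col-62, were in no peak list. They share most of their sequence with each other, with 27.7% of the 36-base words of col-7 and 10.3% of those of col-62 found once in the genome, so reads from them may not be placed and their state is uncertain.

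The last collagen gene in the reproducible list was col-176 on X (10077597 to 10078728, plus strand). It ranked 303 in replicate 1, with a signal of 47.99, and 1397 in replicate 2, with a signal of 28.97. Its pooled rank was 439 and its summit lay in the coding exon, 528 bp before the 3′ end. It stood among the 500 highest peaks of replicate 1 and not of replicate 2.

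Of the next 8 genes by pooled rank, 7 had their best summit in the repeat and away from small RNA genes. The first of them, col-91 on III, had pooled rank 502 and ranked 363 in replicate 1 and 1201 in replicate 2. The pooled ranks of col-39, col-156 and col-142 were 676, 689 and 691. Replicate support was uneven among them: col-156 ranked 1042 in replicate 1 and 950 in replicate 2, whereas col-142 ranked 273 and 6992. The 3 lowest of the 12 were col-42 at pooled rank 758, col-113 at 807 and col-122 at 826, and col-122 ranked 6760 in replicate 1 but 635 in replicate 2. The remaining gene, col-54 on chromosome I at rank 632, is taken up below with the tRNA genes.

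On X the next genes after col-19 and col-176 were col-184 at pooled rank 1155, col-187 at 1605, col-177 at 1767 and col-183 at 1833. All 4 were marked in both replicates. The genes with the lowest sum of ranks over the 2 replicates were col-85, col-99, col-19, col-106, col-91 and col-54. Among these col-106, a gene of chromosome IV outside the 12 highest, ranked 516 in replicate 1 and 1027 in replicate 2.

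**Figure D2:**
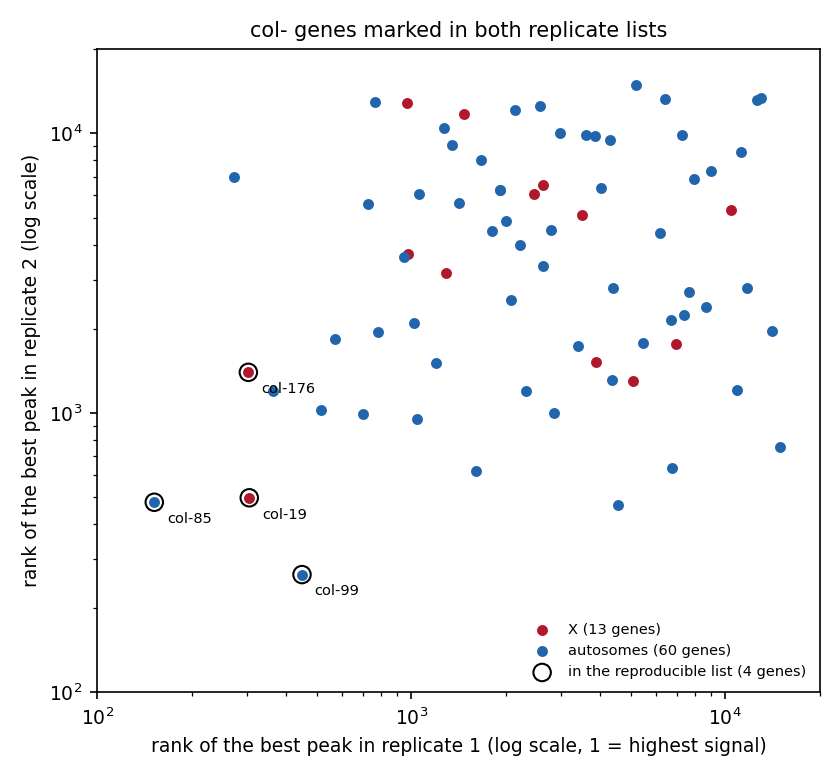
Rank of the best peak in replicate 1 (horizontal) against replicate 2 (vertical), both on log scales with low ranks meaning high signal, for the 73 collagen genes marked in both replicate lists, 13 on X (red) and 60 on autosomes (blue). The 4 genes of the reproducible list (circled) sit at the lower left, and above rank 1000 the points spread widely.

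Of the 98 genes marked in the pooled list, 69 were marked in both replicates (70.4%), 14 in replicate 1 only and 14 in replicate 2 only. Among all protein-coding genes marked in the pooled list, 65.7% were marked in both replicates. The gene col-160 was marked in the pooled list alone. Its pooled peak was shared with col-159. Another 4 genes, col-9, col-17, col-108 and col-133, were marked in both replicates but not in the pooled list. These 5 were picked out after their values were seen. In 49 of the 73 genes marked in both replicates the best summits of the replicates lay at most 220 bp apart, with a median distance of 147 bp.

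The summits sat in the bodies of the genes, toward the 3′ end. A summit in the gene body marked 97 of the 98 genes, and col-69 alone was marked only from upstream, by a summit 35 bp before its start. The best summit fell in a coding exon in 84 genes, in an intron in 9, in the 3′ UTR in 2 and in the 5′ UTR in 2. Its median distance from the annotated 3′ end was 456 bp, with quartiles of 356 and 754 bp. In 1775 other marked protein-coding genes of similar length the median was 1036 bp, with quartiles of 463 and 1558 bp. Between 200 and 600 bp before the 3′ end lay the best summit of 65 collagen genes (66.3%) and of 380 of those other genes (21.4%).

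**Figure D3:**
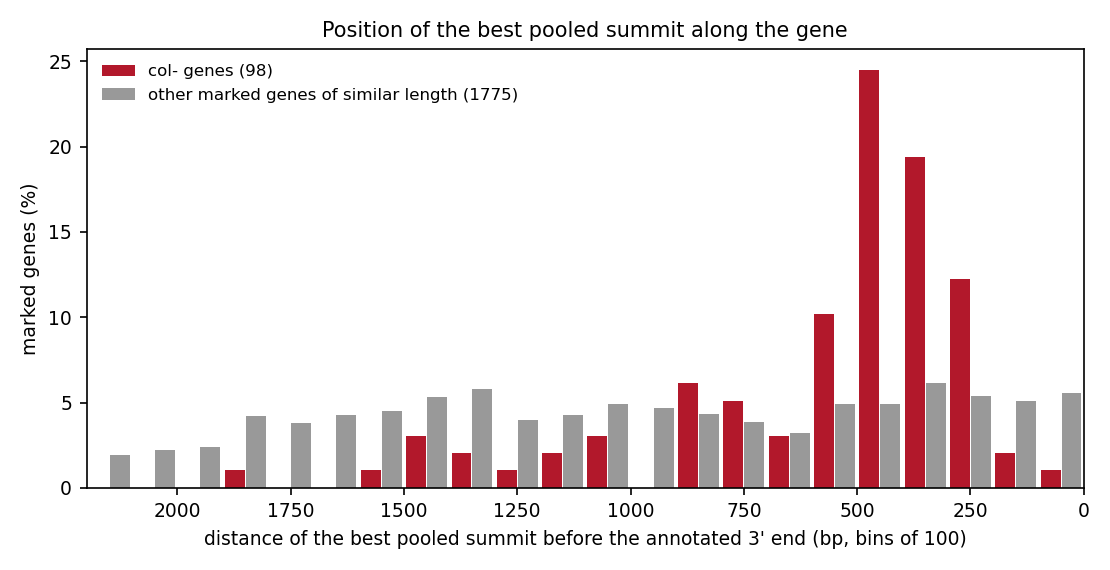
Distance of the best pooled summit before the annotated 3′ end (horizontal, 3′ end at the right, bins of 100 bp) for 98 marked collagen genes (red) and 1775 other marked protein-coding genes of similar length (grey), as a percent of each set. The axis is cut at 2200 bp, and 3 collagen genes and 75 other genes at 2200 bp or more are not drawn. The collagen genes pile up between 200 and 600 bp, while the other genes spread over the whole length.

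That stretch of the gene is where the glycine repeat lies. A run was defined as at least 5 codons that begin with GG, each 9 bases after the last, and 155 of the 156 genes have such runs in their coding sequence, with a median of 51 glycine codons. From the first to the last codon of the runs, with any introns between them, the span of the repeat covered a median of 46.5% of a marked gene. The best pooled summit fell inside this span in 83 of 98 genes (84.7%), in replicate 1 in 82 of 94 (87.2%) and in replicate 2 in 73 of 96 (76.0%). The 83 include intron summits with no run in the 201 bases around them, those of col-99, at its tRNA gene, col-90, col-186 and col-109. A run lay in the 201 bases around the best pooled summit, on either strand and in any frame, in 82 of the 98 genes. Among the genes with a best summit outside the span in the 40 highest ranked, col-41, col-87 and col-102 had it between the repeat and the 3′ end. They were picked out after their values were seen.

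**Figure D4:**
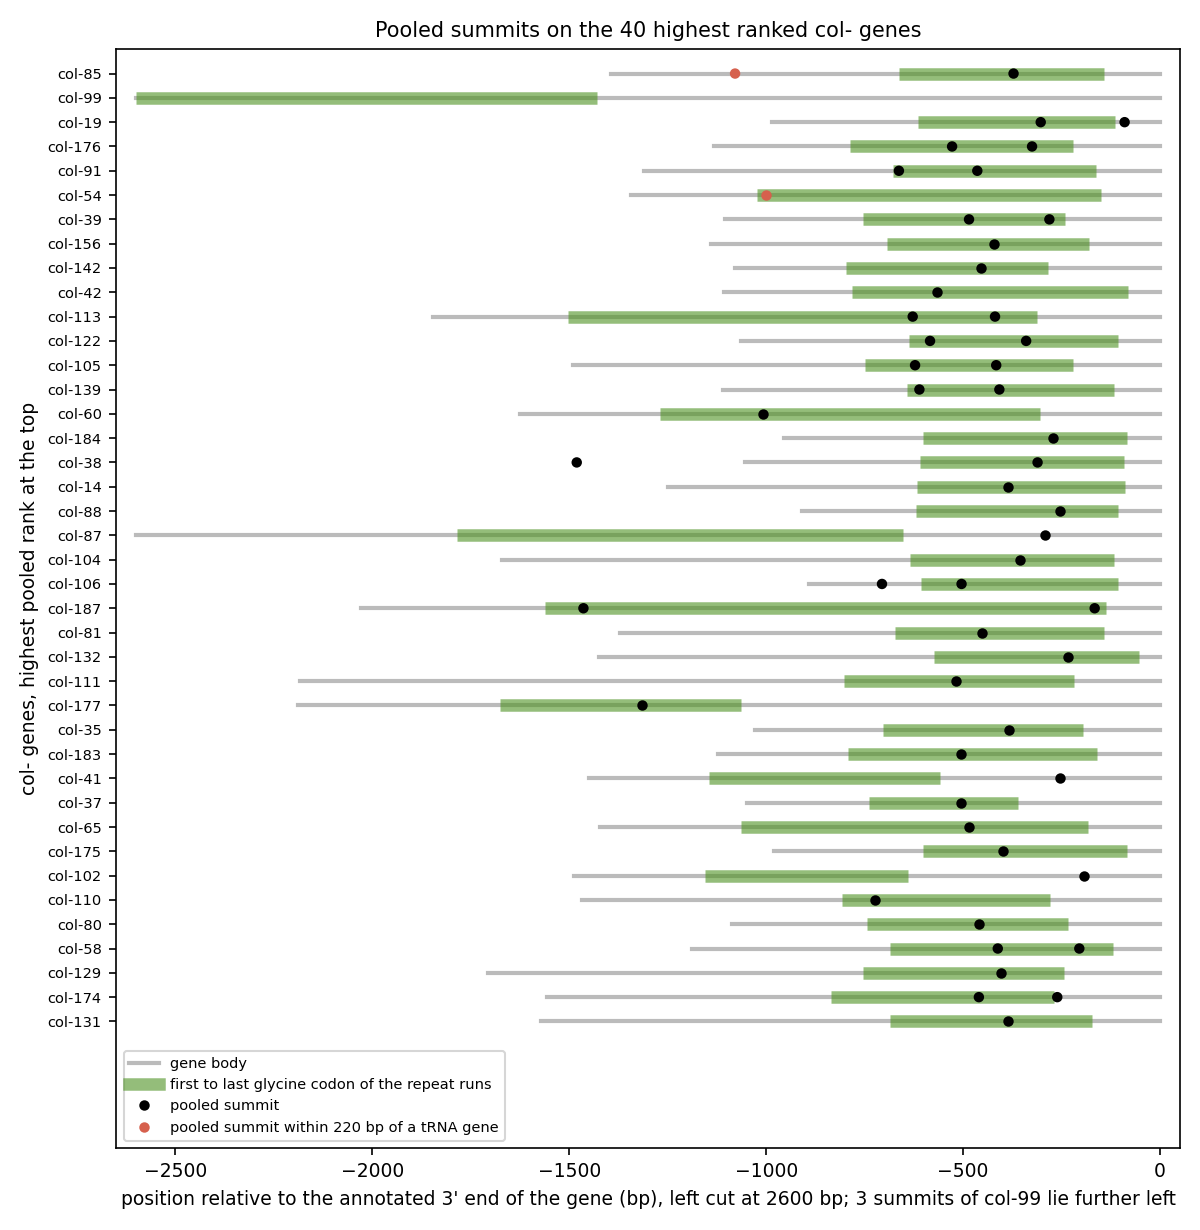
The 40 collagen genes of highest pooled rank, highest at the top, each aligned at its annotated 3′ end (horizontal axis in bp, cut at 2600 bp), with the gene body (grey), the span of the glycine repeat (green) and pooled summits (black, or red within 220 bp of a tRNA gene). Summits lie mostly on the green span, and the 3 summits of col-99 fall beyond the left limit.

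The same runs were looked for on both strands and in every frame of the 201 bases around all pooled summits. They were found at 101 of the 127 pooled peaks that mark a collagen gene (79.5%) and at 79 of the 11881 other pooled peaks (0.665%). Of 498866 windows of this length laid end to end over the nuclear genome, 0.238% held a run. A match describes the sequence only. Since 155 of the 156 collagen genes hold runs, over a span with a median of 47.2% of the gene, many windows in these genes hold one. The share of windows over the collagen gene bodies that hold a run was not computed. The contrast with other peaks therefore does not show whether summits favour the repeat within these genes. Peaks at collagen genes were also richer in G and C over 441 bp, with a median of 55.6% (quartiles 50.7 and 60.3%), against 38.1% (33.8 and 43.3%) at other pooled peaks and 35.4% in the nuclear genome. The part of GC content in the position of the summits was not tested, and it cannot be told apart from the repeat itself.

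Within the collagen genes, the shares marked differed little with the length of the longest unbroken run of glycine codons. That length is not the length of the whole repeat, which can be made of several runs. Of the 123 genes with a run of at least 20 glycine codons, 78 were marked in the pooled list (63.4%), and of the other 33 genes 20 were (60.6%). Marked and unmarked genes had the same median of 51 glycine codons in runs. Their median coding GC contents were 55.7% in marked and 54.8% in unmarked genes, and their median lengths 1256 bp and 1172 bp.

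Marked and unmarked genes stood further apart in how much of their sequence is unique. In marked genes a median of 99.9% of 36-base words occurred once in the nuclear genome, and in unmarked genes 89.2%. Of the 113 genes with at least 90% unique words, 84 were marked (74.3%), and of the 43 below that 14 were (32.6%). None of the 21 genes with under 50% unique words was marked in the pooled list, 2 were in replicate 1 and 1 in replicate 2. Near-identical copies, which include col-126 with col-127, col-3 with col-117, col-167 with col-168 and col-12 with col-13, are therefore uncertain, since how reads that fit several places were treated is not given in the sources used here. The length of 36 bases was chosen here and is not the study's read length, and the part of uniqueness in the missing marks was not tested.

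**Figure D5:**
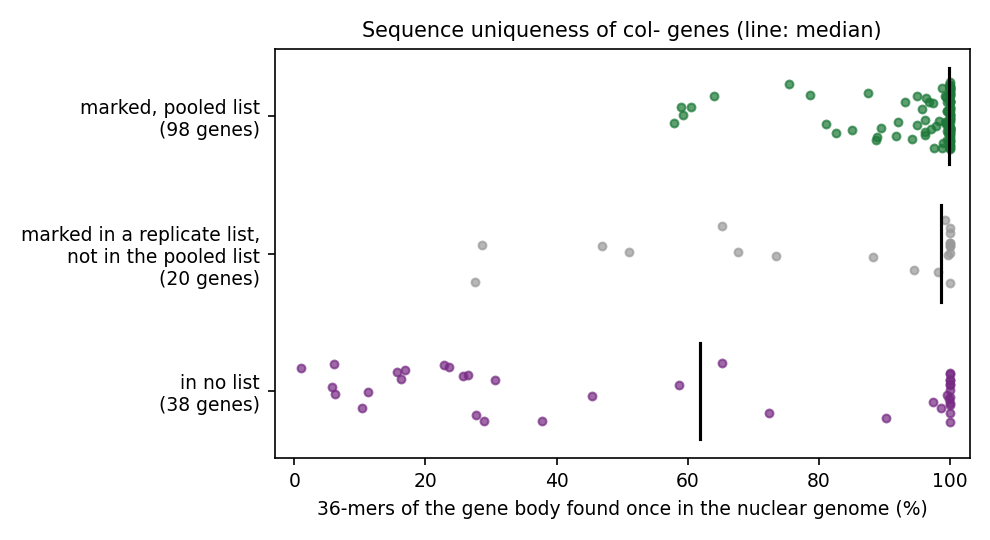
Percent of a gene's 36-base words found once in the nuclear genome (horizontal), 1 point per collagen gene with a line at the median, for the 98 genes marked in the pooled list (green), the 20 marked in a replicate list but not in the pooled list (grey) and the 38 in no list (purple). Genes in no list lie mostly either below 50% or near 100%.

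Shares were higher for unique genes on X and on the autosomes alike. On X, 15 of 18 genes with at least 90% unique words were marked (83.3%), and 2 of 9 below that. On the autosomes 69 of 95 were marked (72.6%), and 12 of 34 below that. In all, 118 collagen genes were marked in at least 1 list and 38 in none. The share of all protein-coding genes in at least 1 list was not computed. Replicate 1 alone marked 40.6% of all protein-coding genes and replicate 2 alone 39.5%. Of the 38 collagen genes in no list, 21 had under 90% unique words, and 17 had at least 90%, so repeated sequence did not go with every missing mark.

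In 3 of the 6 clusters of at least 3 neighbouring collagen genes the members were marked alike in the pooled list, and in the other 3 they were not. In the cluster of col-79, col-39 and col-80 on II all 3 were marked in the pooled list, as were col-141, col-142 and col-143 on V. The best pooled summits of col-79, col-39 and col-80 also lay in the gene dph-2, so their signal cannot be assigned to the collagen genes alone. Clusters that hold genes of shared sequence were mostly unmarked in the pooled list. The counts were 0 of 3 for col-92, col-93 and col-94 on III and 1 of 3 for col-144, col-145 and col-10 on V. For col-167 to col-171 on X the count was 1 of 5. The genes marked there were col-145, with 81.1% unique words, and col-171, with 98.8%. Each replicate, however, marked 2 of 3 in the cluster of col-144, col-145 and col-10. Of col-17, col-20 and col-73 on II, only col-20 was marked in the pooled list, while each replicate marked 2 of the 3. These last 4 clusters were picked out after their values were seen. The gene col-162, whose body starts 4415 bp from mes-4 itself, was marked in replicate 2 only, at rank 3660.

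A tRNA or snoRNA gene within 220 bp of the summit was about as frequent at marked collagen genes as at marked genes at large. It was found for the best pooled summit of 3 genes, 3.06% of those marked, and for 284 of all marked protein-coding genes (4.15%). All 3 were tRNA genes: those of col-85 and col-99, and tRNA-Arg gene F33D11.t2, which lay 33 bp from the best summit of col-54. That gene ranked 703 in replicate 1, with a signal of 36.69, and 992 in replicate 2, with a signal of 31.98. With peaks at small RNA genes left out, 97 collagen genes were marked in the pooled list, because col-85 and col-99 kept another summit, and 2 in the reproducible list, col-19 and col-176. The genes col-72, col-128 and col-181 have a tRNA or snoRNA gene within 220 bp of the gene body or of the 500 bp upstream of it. They were not marked in the pooled list, so no distance from a summit is given, and they were picked out after their values were seen. The part of the tRNA genes in the signal at col-85, col-99 and col-54 was not tested.

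The limit of 500 bp upstream mattered little. Just inside it lay summits 428 bp before col-38 and 449 bp before col-172, both of which also had a summit in the body. Just outside lay those 628 bp before col-35, which was marked in its body as well, and 636 bp before col-63, which was not marked in the pooled list. The best summit of 22 marked collagen genes also lay in another protein-coding gene. Among these genes were ncr-2 for col-91, dph-2 for col-39, col-79 and col-80, and lron-14 for col-122. The same share over all marked protein-coding genes was not computed. There were 2 pooled peaks that marked 2 collagen genes each, col-46 with col-47 and col-159 with col-160.

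Cuticle collagens known by their mutant shape rather than by number gave a similar picture. Of the 20 listed dpy, sqt, bli, rol and lon genes, 15 were marked in the pooled list (75.0%), against 34.3% of all protein-coding genes. Both replicates marked 10 of them, against a background of 26.1%, and the reproducible list held 0, against 1.45%. The highest ranked were dpy-13 at 551, sqt-3 at 970, dpy-9 at 1012 and dpy-8 at 1424, all collagens that set body shape. Each of these 4 summits lay in a coding exon within the glycine repeat. Over all genes outside the col- names, 104 of 195 with a run of at least 5 glycine codons were marked in the pooled list (53.3%), 28 of 48 with at least 10 (58.3%) and 21 of 25 with at least 20 (84.0%), against 34.3% of all protein-coding genes. The last of these sets holds most of the shape genes, and these limits were chosen after the data were seen.

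The listed genes of collagen processing, not all of them particular to the cuticle, and the cuticlins do not code for the glycine repeat. Of 17 listed genes of collagen processing and cross-linking, which include enzymes and proteins that act with them, 10 were marked in the pooled list (58.8%), against 34.3% of all protein-coding genes. Both replicates marked 9 of them, against 26.1%. Most of these genes are longer than the median protein-coding gene of 2027 bp, and the part of length in their shares was not tested. The highest was dpy-11, which codes for a thioredoxin-like protein of the hypodermis, at pooled rank 1381. The prolyl hydroxylase genes phy-4 and phy-3 ranked 2243 and 2325, and pdi-2, which codes for the shared subunit of the prolyl hydroxylase, ranked 3328. Of 37 cuticlins and related genes, which form the part of the cuticle that resists solubilization, 11 were marked (29.7%), close to the 34.3% of all protein-coding genes. The reproducible list held 3 of the 37, against 1.45% of all protein-coding genes. These were cutl-18 at pooled rank 5, cut-2 at 192 and cutl-23 at 435. The summits of cutl-18 and cutl-23 lay within 220 bp of a tRNA or snoRNA gene.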

How the data were processed

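Peaks of MES-4-GFP immunoprecipitation from 2 biological replicates were deposited by the authors as narrowPeak lists on ce11, which is WBcel235. Per the labels and the deposited file notes, the relaxed lists hold peaks and background as input to an irreproducible discovery rate analysis, and the fourth list holds the peaks it kept. Each peak carries the authors' signal value (column 7) and a deposited −log10 q-value (column 9). The sources used here do not give the aligner, peak caller or threshold. Lists on ce10, the control, any untagged immunoprecipitation and the alignments were not analysed here, so read depth is unknown and a peak's precision cannot be given.

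Coordinates are 1-based and none was converted. Mitochondrial peaks were dropped. Marking, ranks, runs and unique 36-base words were computed with Python 3.11.15, numpy 2.4.6, pandas 2.3.3 and scipy 1.17.1, figures were drawn with matplotlib 3.10.9, and the marking rule was tested on simulated summits. With 1 group there is no contrast, and no test over genes was run. Genes, gene lists and comparisons were chosen with earlier results of these data known. Genes named are those of the reproducible list, the 12 highest by pooled rank, the 6 highest on X, those near tRNA or snoRNA genes, adult collagens, col-99 and col-162, the 6 with the lowest summed ranks, those nearest the upstream limit, clusters of at least 3 that hold a named gene, and the highest of other lists. Sequences come from the RefSeq copy of WBcel235.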

Additional observations from a re-analysis of the deposited data

How the results depend on the processing

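With the gene body alone, 1000 bp upstream, any overlap of 1 bp or no peaks at small RNA genes, the counts of marked collagen genes in the pooled list, each replicate and both replicates stayed within 1.5 times the reported ones. Leaving out a replicate gave 94 to 96 genes for the pooled list, 1 to 5 for the reproducible list and an X minus autosome difference of -5.68 to 1.72 points. That difference was also below 0 with 1000 bp upstream, at -0.603. Stricter lists gave fewer genes by construction: 14 with the top 1000 pooled peaks, 13 with a q-value of at most 0.05, 59 with the top 5000 of replicate 1, 54 with the top 5000 of replicate 2, and 29 with both. The reproducible list gave 2 genes without peaks at small RNA genes and 0 in its upper 220 peaks. The tRNA count stayed at 3 with 100 bp, 500 bp and snRNA genes added, and the median rank was 3012.5 by column 9. No paired analysis was possible because there is 1 group. Read depth, the control and read placement limit every share given.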

Other observations

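Collagens of basement membranes, which underlie tissues and are no part of the cuticle, were marked in their glycine repeats too. The type IV collagen genes let-2 on X and emb-9 on III had pooled ranks of 1789 and 1986, with runs of 70 glycine codons, and both summits lay in coding exons inside the repeat. The third gene listed, cle-1, had pooled rank 8150 and was marked in replicate 1 and not in replicate 2. Its best pooled summit lay outside the repeat.

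Of 12 regulators of cuticle and molting listed, 9 were marked in the pooled list (75.0%), against 34.3% of all protein-coding genes, and all 9 in both replicates, against 26.1%. These regulators are 3175 to 20312 bp long, against a median of 2027 bp for all protein-coding genes. A longer gene offers more room for a summit, and the part of length in these shares was not tested. The zinc finger factor lin-29, which acts at the larval-to-adult switch, was in the reproducible list, with ranks of 840 in replicate 1 and 109 in replicate 2 and a pooled rank of 325. Its summit lay in the 3′ UTR, 286 bp before the 3′ end. Next came the nuclear receptor gene nhr-25 at pooled rank 1674, the GATA factor gene elt-1 at 2299 and elt-3 at 3226, and none of these 4 summits lay within 220 bp of a tRNA or snoRNA gene.

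The one collagen gene without glycine runs in its annotated reading frame was col-17, picked out after its values were seen. Read 2 bases later, its annotated coding sequence holds runs of 10, 20 and 21 codons that begin with GG. It was marked in replicate 1 at rank 5215 and in replicate 2 at rank 14872, and not in the pooled list.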
